A study of Homo sapiens with 21 samples.

Results

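The solute carrier (SLC) genes described here are 149 of the 26475 genes in a count table of SK-MEL-147, a line of human melanoma cells. Their symbols hold SLC, a family number, the letter A and a member number, and their mean level over all 21 libraries was at least 5 CPM (counts scaled to a common library total). Of 360 symbols of this form, 206 lay under the threshold, 34 of them at 0 in every library, and 5 were left out by name (SLC2A1, SLC3A2, SLC7A1, SLC7A5 and SLC7A11). Just inside the threshold were SLC2A12 and SLC25A25-AS1, each at 5.31 CPM, and SLC7A2 at 5.17 CPM. Just outside were SLC22A5 at 4.85, SLC30A1 at 4.59 and SLC25A42 at 4.31 CPM. All 149 passed the filter on low counts, and SLC7A2 alone would drop under the threshold without 1 of the groups (UNC0642 or untreated). The members were chosen by their mean level, so levels are a description with no test. The rule uses no difference between groups, but the set was proposed with earlier results of these data known.

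Polyadenylated RNA was sequenced from 7 groups of 3 libraries each, all of the parental line. One group was left untreated and the other 6 each received a different small molecule. JQ-1 is a ligand of the BET bromodomain proteins and TP-472 a ligand of the BRD9 and BRD7 bromodomains. Among the 3 compounds aimed at arginine-modifying enzymes, PRMT5 is the target of GSK-591, the type I methyltransferases are those of MS023, and the deiminase PADI4 is that of GSK-484. UNC0642 blocks the lysine methyltransferases EHMT1 and EHMT2. The labels used here state no dose, no exposure time and no vehicle. The design calls the replicates biological but does not say whether they were separate cultures, so the p-values measure the spread between these libraries, which may be technical.

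Solute carriers are membrane proteins that move nutrients, ions, metals and metabolites across the plasma membrane and the membranes of organelles. Some exchange 1 solute for another and others use the sodium or proton gradient to concentrate their cargo. Their families are numbered by sequence, so members of a family mostly share the kind of solute. Family 25 sits largely in the inner mitochondrial membrane, families 1, 6, 7, 36, 38 and 43 carry mainly amino acids, families 30 and 39 export and import zinc, and family 16 carries lactate and other monocarboxylates. In melanoma and other cancer cells, carriers of glucose, glutamine and lactate are known for supplying or draining a fast metabolism. Of the 149 symbols, 143 name carriers. The other 6 share only the symbol: SLC9A3R1 and SLC9A3R2 encode scaffold proteins, SLC2A4RG a DNA-binding regulator, SLC4A1AP an adaptor protein, SLC7A6OS the gene on the opposite strand of SLC7A6, and SLC25A25-AS1 an antisense RNA.

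By family number the members fell into 36 mitochondrial carriers, 23 carriers of ions and protons, 20 of amino acids, 19 of zinc and other metals, 12 of sugars and inositol, 9 of vitamins, choline and cofactors, 5 of nucleotide sugars, 5 of phosphate and organic anions, 4 of monocarboxylates, 3 of organic cations and anions, 2 of fatty acids, 1 of nucleosides, 1 of peptides and 3 others. Levels between genes are compared per kilobase of transcript (median length of the coding transcripts of GENCODE 29 basic). On that scale the phosphate carrier SLC25A3 was highest, at 414 CPM per kilobase as a mean over all libraries. It was followed by the ADP/ATP carriers SLC25A5 at 323 and SLC25A6 at 196, the neutral amino acid exchanger SLC1A5 at 174 and the urea transporter SLC14A1 at 138. The glutamine transporter SLC38A2 (126), the sodium bicarbonate cotransporter SLC4A7 (81.5), the glutamine transporter SLC38A1 (80.1), the zinc transporter SLC39A7 (76.6) and the lactate exporter SLC16A3 (70.6) completed the highest 10. Among classes of 9 or more members, the median level ran from 4.0 CPM per kilobase for carriers of ions to 15.7 for carriers of zinc and other metals, and the classes overlapped widely.

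**Figure D1:**
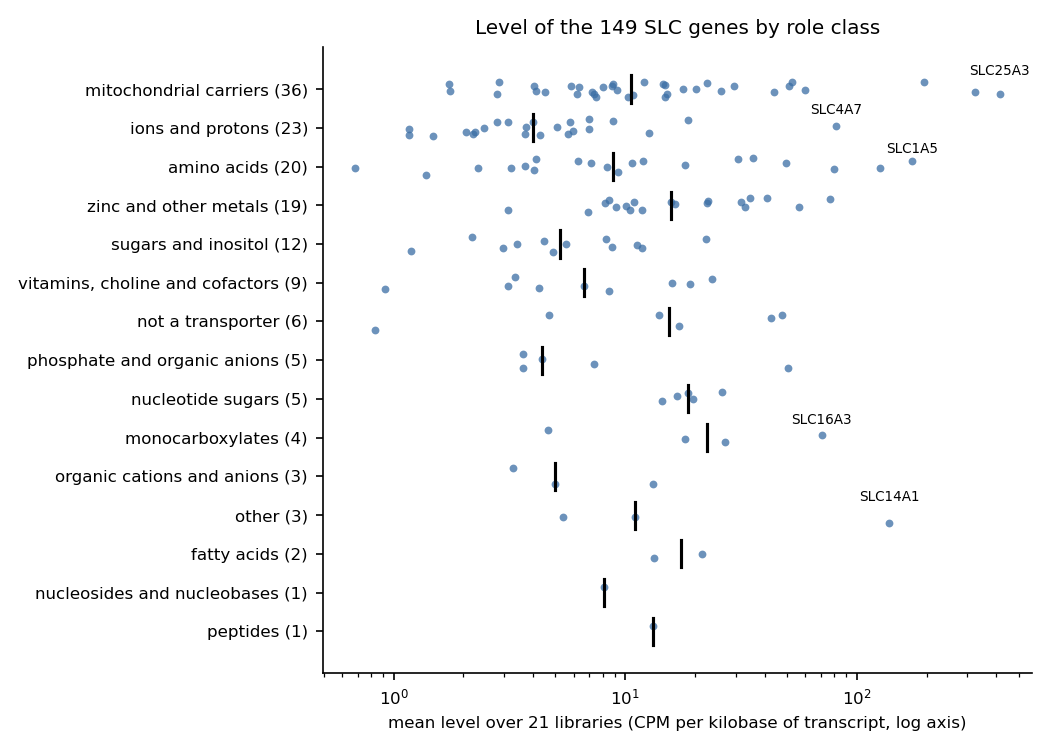
Mean level of each member over the 21 libraries in CPM per kilobase of transcript (log axis), 1 point a gene, by role class with the number of members in brackets. The vertical bar is the median of the class. The highest 3 points are mitochondrial carriers, at 196 to 414 CPM per kilobase.

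Library totals lay between 20978182 and 78776788 expected counts. Levels of members per library, per group and per kilobase are CPM after TMM scaling, which adjusts the library totals. On that scale the members together stood at 8103 to 8519 CPM in every library. The sum was lowest in the 3 JQ-1 libraries (8103 to 8115 CPM) and highest in an MS023 library. These sums are not shares of the raw total. With JQ-1 the median log2 change of all genes was -0.00637 with TMM and -0.149 with total-count scaling. Counts are relative to a library's total, so fewer cells and less RNA per cell cannot be told apart. As a check of the label, the neural crest genes SOX10 (354 to 567 CPM) and NGFR (114 to 288 CPM) and the invasive-state gene AXL (1810 to 1980 CPM) were present, and MITF was at 9.16 to 17.8 CPM, while the pigment cell markers MLANA, PMEL, TYR and DCT and the melanoma marker S100B stayed at or under 0.421 CPM. Markers of keratinocytes, leukocytes and endothelium stayed at or under 0.709 CPM, and COL1A1, a fibroblast collagen, was at 3.63 to 5.49 CPM. One technical measure moved with the untreated group: log2 CPM changed with the GC content of transcripts by -0.133 ± 0.0429 per 10 percentage points in the untreated libraries (SD, n = 3) and by 0.0221 ± 0.0405 in the treated ones (SD, n = 18). Over the members alone, the slopes were -0.21 to -0.105 in untreated and -0.0485 to 0.144 in treated libraries. Each compound was therefore compared with untreated cells in 3 fits: as measured, with the GC trend of each library removed, and with that trend removed and, in place of untreated cells, the mean of the other compounds as the reference, JQ-1 left out of it (for JQ-1, all 5 others). Changes with the reference compounds also enter the values of the third fit. A gene is called where the Benjamini-Hochberg adjusted p of edgeR's quasi-likelihood test was under 0.05 over all genes tested (15062 as measured, 14119 with the trend removed).

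JQ-1 changed most of the solute carriers, in both directions and by up to 4.5-fold. Of the 149 members, 57 rose, 59 fell and 33 were not called (35.7% and 37.6% of all genes tested rose and fell), a share of 77.9% beside 73.3% of all genes tested and 79.5% of the 10812 genes of the same level range (mean CPM of 5 or more). The median log2 change was 0.022 over the members and -0.00637 over all genes, with median sizes of 0.395 and 0.444. A change of 2-fold or more was called for 21 members (14.1%, beside 19.7% of all genes tested and 12.2% of those in the level range). In all 3 fits and in the same direction, 52 members rose and 50 fell, 68.5% beside 65.8% of the genes with a GC value (32.1% higher and 33.7% lower) and 70.6% of those in the level range. Under total-count scaling, which shifted the median of all genes to -0.149, 42 members rose and 72 fell, and 37.3% of all genes called were higher. The shares of members changed were thus near those of other genes of this level, and the role classes are described in turn. Class counts are descriptions with no test, to be read beside the 35.7% of all genes tested that rose and the 37.6% that fell.

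**Figure D2:**
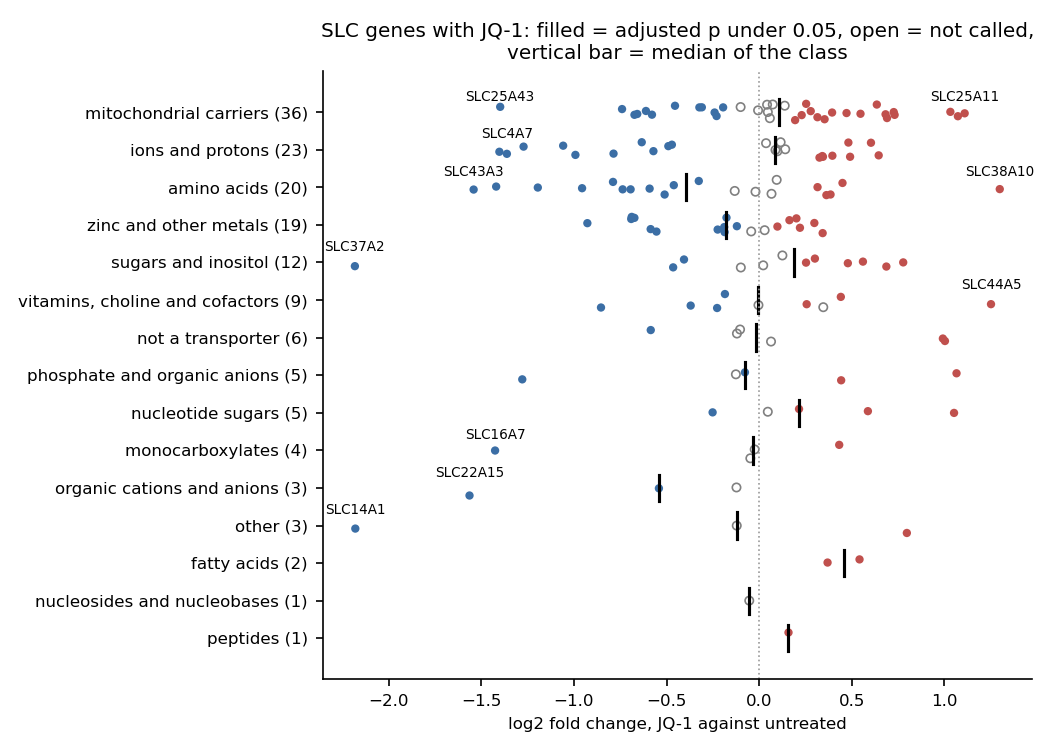
Log2 fold change of the 149 members with JQ-1 against untreated cells (x axis), by role class, 3 libraries a group. Filled points have an adjusted p under 0.05, open points do not, and the bar is the class median. Carriers of amino acids have a median of -0.393, and points lie from -2.18 (SLC37A2 and SLC14A1) to 1.30 (SLC38A10).

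Carriers of amino acids fell more often than they rose with JQ-1: 11 of 20 fell, 5 rose and 4 were not called, with a median log2 change of -0.393. Of all genes tested, 37.6% fell and 35.7% rose. SLC43A3, which its family number places here but which is known as a purine nucleobase transporter, stood at 136, 139.9 and 145 CPM in the untreated libraries and 47.4, 49.9 and 47.3 CPM in the JQ-1 libraries. It fell from 140.4 ± 4.37 to 48.2 ± 1.47 CPM, a log2 change of -1.54 (SE 0.04) with adjusted p = 1.50e-19. The glycine transporter SLC6A9 fell from 15.6 ± 1.25 to 5.82 ± 0.183 CPM, a log2 change of -1.42 (SE 0.08) with adjusted p = 1.70e-13. The 2 main sodium-coupled glutamine transporters of this line parted. SLC38A1 stood at 299.5, 268 and 247 CPM in untreated and 120.4, 118 and 117 CPM in JQ-1 libraries, a log2 change of -1.19 (SE 0.058) with adjusted p = 1.10e-14. SLC38A2, the more abundant paralogue, was at 388 ± 20.6 and 414 ± 3.40 CPM and was not called (adjusted p = 0.0613), although it was called higher with the GC trend removed (log2 change 0.30, adjusted p = 2.43e-09) and without untreated replicate 1 (0.14, adjusted p = 0.00661). The lysosomal arginine sensor SLC38A9 (-0.59 on the log2 scale), the cationic amino acid transporter SLC7A2 (-0.96), the branched-chain and neutral amino acid transporters SLC43A1 (-0.69) and SLC6A15 (-0.51) and the glutamate importer SLC1A3 (-0.46) also fell.

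The 5 amino acid family members that rose were led by SLC38A10. Its levels were 24.2, 26.1 and 26.3 CPM in untreated and 61.6, 64.5 and 62.02 CPM in JQ-1 libraries, which is the highest rise of all members, with a log2 change of 1.30 (SE 0.05) and adjusted p = 1.50e-16. The proton-coupled lysosomal carrier SLC36A1 (0.45), the creatine transporter SLC6A8 (0.39), the cationic amino acid exchanger subunit SLC7A6 (0.36) and the serine and alanine exchanger SLC1A4 (0.32) rose by less than 1.5-fold. The glutamine exchanger SLC1A5 was at 291, 314 and 319.6 CPM in untreated and 324, 326 and 318 CPM in JQ-1 libraries, with overlapping groups and no call (log2 change 0.067 (SE 0.037), adjusted p = 0.107). Without untreated replicate 3 it was called higher (0.092, adjusted p = 0.0431), and against the other treated groups lower (-0.11, adjusted p = 0.00193). The taurine transporter SLC6A6 was likewise not called as measured (-0.02, adjusted p = 0.741). Its log2 change lay between -0.162 and 0.049 over the alternative runs, with a lowest adjusted p of 0.0113. The 4 amino acid transporter genes left out of the set by name, for completeness, changed by 0.43 (SLC3A2, the heavy chain shared by several SLC7 carriers), -0.43 (SLC7A1), -0.16 (SLC7A5) and -0.062 (SLC7A11, adjusted p = 0.356, but 0.22 with adjusted p = 5.45e-04 with the GC trend removed) on the log2 scale.

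Of 12 sugar carriers, 6 rose, 3 fell and 3 were not called (4 higher and 4 lower under total-count scaling), with a median of 0.189. Their extreme was a fall: SLC37A2, an endoplasmic reticulum exchanger of glucose 6-phosphate and phosphate, stood at 23.4, 23.3 and 22.6 CPM in untreated and 4.66, 5.43 and 5.19 CPM in JQ-1 libraries. Its log2 change of -2.18 (SE 0.063) (adjusted p = 8.61e-19) stood beside a small rise of its relative SLC37A3 (0.25, adjusted p = 0.00489). The proton-coupled inositol transporter SLC2A13 rose from 17.6 ± 0.815 to 30.2 ± 0.884 CPM, a log2 change of 0.78 (SE 0.072) with adjusted p = 1.19e-09. The glucose transporter SLC2A3 rose from 41.8 ± 2.51 to 61.6 ± 3.40 CPM, a log2 change of 0.56 (SE 0.051) with adjusted p = 1.13e-09. Its near-identical relative SLC2A14 averaged 0.0418 CPM. Expected counts already divide the reads that fit both genes, so this low value cannot show how many were shared. SLC50A1, a glucose carrier of the SWEET family, rose by 0.69 on the log2 scale, and SLC2A1, the left-out glucose transporter, by 0.83.

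The monocarboxylate transporters moved apart. SLC16A7, a high-affinity lactate and pyruvate importer, stood at 52.9, 41.1 and 41.2 CPM in untreated and 17.6, 15.9 and 16.98 CPM in JQ-1 libraries, a log2 change of -1.43 (SE 0.098) with adjusted p = 6.43e-12. SLC16A1, the broadly expressed lactate transporter, rose from 114 ± 3.39 to 154 ± 2.69 CPM, a log2 change of 0.43 (SE 0.039) with adjusted p = 9.91e-10. SLC16A3, the exporter of glycolytic cells, was at 128 ± 5.96 and 126 ± 2.50 CPM and was not called as measured (adjusted p = 0.622), but was called lower with the GC trend removed (log2 change -0.25, adjusted p = 8.06e-07). Both fatty acid transport proteins rose, SLC27A1 by 0.54 (SE 0.053) and SLC27A4 by 0.37 (SE 0.046) on the log2 scale.

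Among 23 carriers of ions and protons, 10 fell, 8 rose and 5 were not called, while 37.6% of all genes tested fell and 35.7% rose. SLC4A7, a sodium bicarbonate cotransporter that loads the cell with base, stood at 490.5, 420.2 and 394 CPM in untreated and 159, 173 and 176 CPM in JQ-1 libraries. Its log2 change was -1.36 (SE 0.066) with adjusted p = 1.20e-14, and the groups did not overlap. The chloride and bicarbonate exchangers split, with SLC4A3 at -1.27 and SLC4A2 at 0.48. The cation-chloride cotransporters split as well. The potassium chloride exporter SLC12A7 fell from 19.9, 20.7 and 20.6 CPM in untreated to 8.35, 7.28 and 7.43 CPM in JQ-1 libraries (-1.40 (SE 0.065), adjusted p = 4.98e-15). Its paralogue SLC12A4 rose (0.60 (SE 0.04)), as did SLC12A2 (0.65 (SE 0.062)), which imports sodium, potassium and chloride. The sodium proton exchangers SLC9A5 (-0.99), SLC9A7 (-1.06) and SLC9A8 (-0.49) fell.

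Of 19 carriers of zinc and other metals, 11 fell, 6 rose and 2 were not called, with a median of -0.176 (12 fell and 2 rose under total-count scaling). Of the 10 members of family 39, which carry zinc into the cytosol, 6 fell, 3 rose and 1 was not called (7, 1 and 2 under total-count scaling). SLC39A10 stood at 46.4, 40.8 and 41.6 CPM in untreated and 21.7, 22.3 and 23.96 CPM in JQ-1 libraries (-0.93 (SE 0.062), adjusted p = 4.46e-12). SLC39A6 fell by 0.67, SLC39A8 by 0.69, SLC39A11 by 0.69 and SLC39A14, which also imports iron, by 0.59 on the log2 scale, and SLC39A1 by 0.12, the last a call lost without any 1 of untreated replicates 2 and 3 and JQ-1 replicates 1 and 2 (adjusted p of 0.051 to 0.147). SLC39A3 rose (0.30). SLC39A9 rose by 0.099, but was not called without untreated replicate 3 (adjusted p = 0.0646) or under total-count scaling (-0.044, adjusted p = 0.323). SLC39A13 rose by 0.20 as measured, but was not called with the GC trend removed (0.0071, adjusted p = 0.902) or without untreated replicate 1 (adjusted p = 0.0709). SLC39A7 was not called (-0.043), though it was called lower under total-count scaling (-0.187, adjusted p = 5.15e-04). The iron importer SLC11A2 fell by 0.55, and the copper importer SLC31A1 by 0.19. Most family 30 genes move zinc out of the cytosol. SLC30A5 (-0.18) and SLC30A6 (-0.19) fell as measured but not with the GC trend removed, and SLC30A9 rose (0.34). SLC30A7 was not called as measured (0.03). Its log2 change lay between -0.113 and 0.287 over the alternative runs, with a lowest adjusted p of 5.5e-08, so the missing call depends on the fit.

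Of 36 mitochondrial carriers, 17 rose, 12 fell and 7 were not called, with a median of 0.106, and under total-count scaling 13 rose and 14 fell. All 3 ADP/ATP carriers rose as measured, but the least abundant rose most. SLC25A4 went from 31.1, 30.1 and 32.4 CPM in untreated to 66.9, 64.3 and 65.6 CPM in JQ-1 libraries, a log2 change of 1.07 (SE 0.06) with adjusted p = 1.49e-13. SLC25A6 rose by 0.64 (SE 0.048) and SLC25A5 by 0.19 (SE 0.04), the last holding fractional counts in every library, which shows that reads were divided there. The call of SLC25A5 was lost in 2 of 16 alternative runs, and its log2 change lay between 0.05 and 0.237 over them. The malate and aspartate shuttle, which carries reducing equivalents into mitochondria, uses carriers that moved in opposite directions. Its malate and oxoglutarate carrier SLC25A11 stood at 26.1, 30.4 and 30.3 CPM in untreated and 59.9, 61.6 and 65.4 CPM in JQ-1 libraries (1.11 (SE 0.057), adjusted p = 3.00e-14). Its aspartate and glutamate carriers SLC25A12 (-0.66 (SE 0.061), adjusted p = 1.34e-09) and SLC25A13 (-0.74 (SE 0.077), adjusted p = 8.73e-09) fell.

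Other mitochondrial carriers of metabolites were higher with JQ-1: SLC25A39, needed for glutathione import, rose from 62.8 ± 5.47 to 128 ± 3.06 CPM, a log2 change of 1.03 (SE 0.058) with adjusted p = 1.74e-13. The dicarboxylate carrier SLC25A10 rose by 0.73, the basic amino acid carrier SLC25A29 by 0.73 and the branched-chain amino acid carrier SLC25A44 by 0.55 on the log2 scale. Lower were SLC25A43, from 23.8 ± 1.73 to 9.04 ± 0.576 CPM (-1.40 (SE 0.064)), the ornithine carrier SLC25A15 (-0.67), the ATP-magnesium and phosphate carrier SLC25A24 (-0.61) and the iron importer mitoferrin SLC25A37 (-0.45). The most abundant member, the phosphate carrier SLC25A3, was at 564 ± 27 and 593 ± 4.24 CPM and was not called as measured (adjusted p = 0.183). Its log2 change lay between -0.071 and 0.106 over the alternative runs, with a lowest adjusted p of 0.0293.

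The largest falls outside these classes were in single carriers. The urea transporter SLC14A1 stood at 238, 238 and 244 CPM in untreated and 51.2, 53.5 and 54.5 CPM in JQ-1 libraries, a log2 change of -2.18 (SE 0.038) with adjusted p = 2.11e-22. The organic ion transporter SLC22A15 fell by 1.56 on the log2 scale. Of 9 carriers of vitamins, choline and cofactors, 3 rose, 4 fell and 2 were not called. The choline transporter-like gene SLC44A5 rose from 14.7, 14.7 and 15.8 CPM to 35.5, 35.7 and 36.5 CPM (1.25 (SE 0.065), adjusted p = 4.78e-14), while the main choline transporter of the set, SLC44A1, fell (256 ± 12.3 to 198 ± 0.649 CPM, -0.37). The reduced folate carrier SLC19A1 fell (-0.85). SLC35A5, in the nucleotide sugar family that supplies the Golgi, rose from 43.03 ± 1.38 to 89.2 ± 0.890 CPM, a log2 change of 1.05 (SE 0.045) with adjusted p = 1.16e-15. The phosphate importers parted slightly, with SLC20A2 at 0.44 and SLC20A1 at -0.077, the latter called as measured (adjusted p = 0.0230) but not with the GC trend removed (adjusted p = 0.350) or without JQ-1 replicate 2 (adjusted p = 0.142). SLC10A7 fell (-1.28), and SLC10A3 (1.07) and the heme transporter SLC48A1 (0.80) rose. Of the 6 symbols that name no carrier, SLC7A6OS (1.0) and SLC9A3R1 (0.99) rose, SLC4A1AP fell (-0.58) and 3 were not called. SLC7A6OS and SLC7A6 overlap and hold fractional counts, so reads of the 2 cannot be fully told apart.

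**Figure D3:**
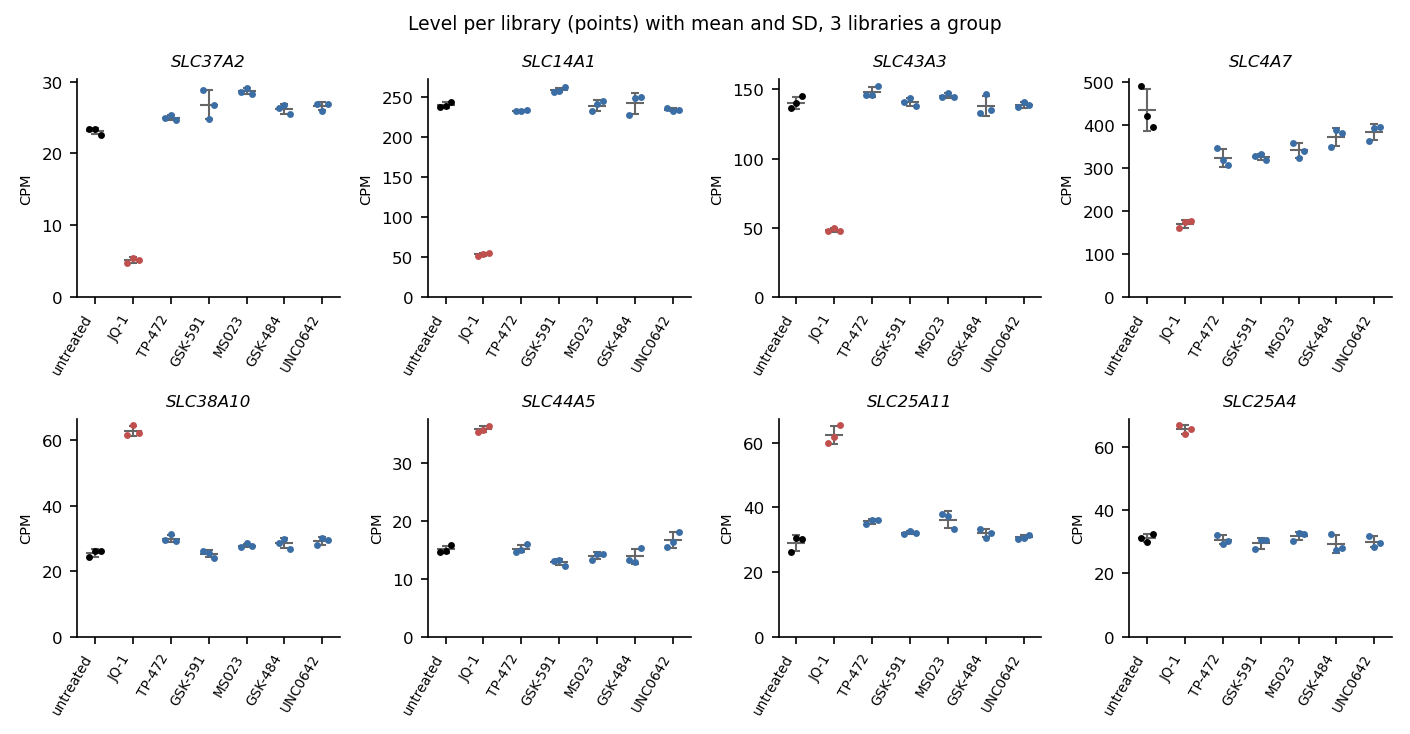
Level in each of the 21 libraries (points, CPM, axis from 0) with the mean and SD of each group of 3, for 4 members with large falls and 4 with large rises in JQ-1. The JQ-1 libraries lie apart from those of the other 6 groups in all 8 panels, and SLC14A1 is at 51.2 to 54.5 CPM there beside 227 CPM or more elsewhere.

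The promoters of members were read for short motifs. RefSeq promoter windows (250 bases before to 50 after the start, GRCh38.p14) were found for 121 of the 149 members. The E-box CACGTG, searched on both strands and bound by MYC and related factors, was in 16 of them (13.2%), beside 7.43% of 27305 promoters. It was in 10 of 50 members that fell with JQ-1 (20%), 3 of 44 that rose (6.82%) and 3 of 27 not called (11.1%). The shares of 5 other motifs in members lay near those of all promoters. They were 3.31% beside 3.67% for TGATGNAAN, 57.0% beside 55.2% for TGCNCNC, 5.79% beside 6.28% for the NRF1 motif, 15.7% beside 13.6% for TGACNNNGC, and 0% beside 0.381% for the CLEAR motif, which holds the E-box. Split by JQ-1 call, TGATGNAAN was in 3 of 50 members that fell, 1 of 44 that rose and 0 of 27 not called. In the same order the NRF1 motif was in 1, 2 and 4, TGACNNNGC in 7, 9 and 3, and TGCNCNC in 26, 26 and 17. Uneven splits on small counts were thus not limited to the E-box. The share with an E-box among all genes that fell with JQ-1 is not given here. These shares are descriptions, with no test, and a match is not a site. The 27305 promoters were not limited to genes of the members' level range, so the 2 sets are not matched in level. The following windows, chosen after the values were seen, show the E-box in capitals before the start of 3 members that fell (SLC12A7 at chr5:1112064-1112176, minus strand; SLC9A5 at chr16:67248859-67248978, plus strand; SLC25A13 at chr7:96322187-96322312, minus strand) and of 1 that rose (SLC2A13 at chr12:40106082-40106166, minus strand), written along the gene.
SLC12A7: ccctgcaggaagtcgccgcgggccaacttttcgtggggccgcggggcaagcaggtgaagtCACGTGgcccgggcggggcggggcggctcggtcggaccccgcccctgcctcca
SLC9A5: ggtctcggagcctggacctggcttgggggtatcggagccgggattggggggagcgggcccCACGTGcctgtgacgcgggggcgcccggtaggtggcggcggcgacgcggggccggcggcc
SLC25A13: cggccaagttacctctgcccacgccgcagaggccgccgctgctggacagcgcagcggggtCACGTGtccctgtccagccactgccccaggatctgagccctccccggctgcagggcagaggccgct
SLC2A13: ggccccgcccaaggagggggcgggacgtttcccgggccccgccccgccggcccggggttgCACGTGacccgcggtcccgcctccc

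With the other 5 compounds, solute carriers changed less than with JQ-1, and the members called higher and lower differed in GC content. Against untreated cells, 71 members were called with TP-472 (47.7%, beside 31.8% of all genes and 41.8% of those in the level range), 67 with GSK-591 (45%, beside 32.9% and 42.9%), 90 with MS023 (60.4%, beside 42.6% and 54.3%), 40 for GSK-484 (26.8%, beside 19.1% and 25.2%) and 31 with UNC0642 (20.8%, beside 16.3% and 21.4%). Leaving out 1 library moved some counts: 39 with TP-472 without untreated replicate 1 and 47 without TP-472 replicate 2, 41 with GSK-591 without untreated replicate 1, 14 and 19 with GSK-484 without untreated replicate 1 and GSK-484 replicate 1, and 20 and 16 for UNC0642 without its replicates 2 and 3. A called change of 1.5-fold or more was seen for 1 member, SLC1A3 with MS023 (0.671%, beside 2.5% of all genes). The median GC content of members called higher was 61.0 to 62.4% over these 5 comparisons and that of members called lower 39.6 to 42%, whereas it was 54.8% and 45.9% with JQ-1. Spearman's rho of the members' log2 change with GC content, as a description over 149 genes, was 0.86 with MS023, 0.851 with TP-472, 0.84 with GSK-484, 0.815 with GSK-591, 0.731 with UNC0642 and 0.269 with JQ-1. These comparisons share the 3 untreated libraries, whose own GC slope stood apart. With the trend removed, 16 members were called with TP-472 (10.7%, beside 14.3% of genes with a GC value and 18.6% of those in the level range). For GSK-591 it was 18 (12.1%, beside 15.2% and 19.6%) and for MS023 33 (22.1%, beside 19.2% and 24.1%). For GSK-484 it was 3 (2.01%, beside 1.55% and 2%) and for UNC0642 6 (4.03%, beside 3.87% and 4.93%). In all 3 fits there were 9, 5, 14, 0 and 1 in the same order, and members among these are described below.

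**Figure D4:**
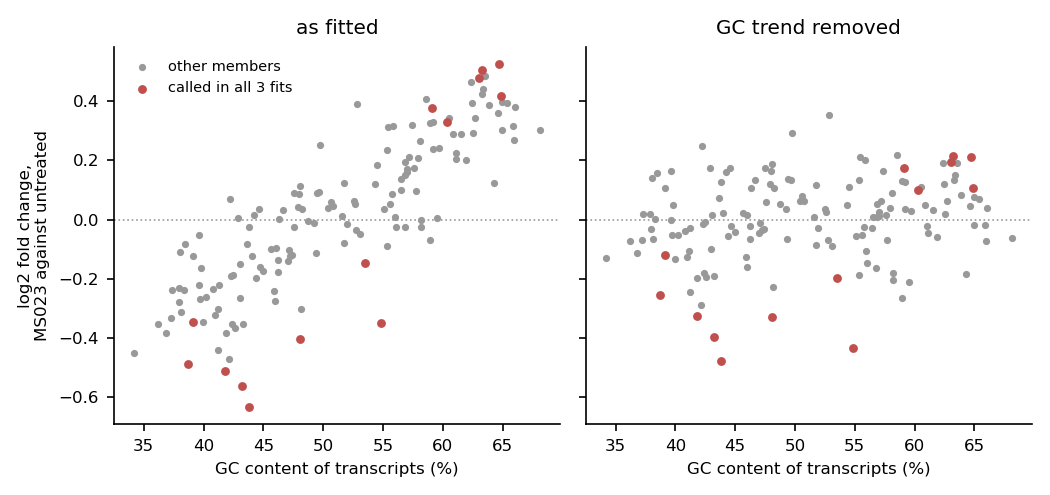
Log2 fold change of the 149 members with MS023 against untreated cells (y axis) against the GC content of their transcripts in percent (x axis), as fitted (left) and with the GC trend of each library removed (right). Red points are the 14 members called in all 3 fits. The slope on the left is gone on the right. SLC1A3 is lowest in both panels, and SLC1A4 is at -0.35 on the left and -0.44 on the right.

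TP-472 raised the 2 neutral amino acid exchangers of family 1 in all 3 fits. SLC1A5, which brings in glutamine, stood at 291, 314 and 319.6 CPM in untreated and 368, 386 and 379 CPM in TP-472 libraries, with no overlap. Its log2 change was 0.29 (SE 0.037) as measured (adjusted p = 1.74e-05), 0.17 with the GC trend removed (adjusted p = 3.63e-04) and 0.15 against the other treated groups (adjusted p = 7.19e-05). SLC1A4, which exchanges serine, alanine and cysteine, stood at 33.3, 33.8 and 32.4 CPM in untreated and 39.6, 40.6 and 42.2 CPM in TP-472 libraries. Its log2 changes in the 3 fits were 0.30, 0.23 and 0.39, with adjusted p of 1.61e-04, 0.00217 and 2.88e-07. Of the genes left out by name, the heavy chain gene SLC3A2 (0.35, 0.23 and 0.13) and its partner SLC7A5 (0.29, 0.12 and 0.12) were also higher in the 3 fits.

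SLC25A11 (0.31 as measured) and the zinc importer SLC39A3 (0.33) were also higher with TP-472 in the 3 fits. Lower were the bicarbonate cotransporter SLC4A7, from 490.5, 420.2 and 394 CPM in untreated to 346, 318 and 306 CPM in TP-472 libraries (-0.43, -0.31 and -0.14 in the 3 fits), the sulfate transporter SLC26A2 (-0.38, -0.22 and -0.20), the sodium proton exchanger SLC9A7 (-0.20) and SLC39A9 (-0.18). The 9 members called in the 3 fits are 6.04% of all members, beside 4.05% of genes with a GC value (1.76% higher and 2.29% lower) and 5.25% of those in the level range. Of the 5 largest rises and 5 largest falls as measured, 6 were not called in all 3 fits: SLC2A8 (0.44), SLC25A10 (0.39), SLC4A11 (0.36), SLC5A3 (-0.44), SLC25A36 (-0.32) and SLC7A2 (-0.38), the last also lost without untreated replicate 1 (adjusted p = 0.132).

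For TP-472 against JQ-1 the untreated libraries are in the fit but not in the contrast. The 2 bromodomain ligands differed for 112 members (75.2%, beside 72.3% of all genes): 59 were higher with TP-472 and 53 lower, beside 37.5% and 34.8% of all genes. Under total-count scaling 78 members were higher and 42 lower, and 63.8% of all genes called were higher. With the GC trend removed, 109 of the 112 were called in the same direction, beside 71.8% of genes with a GC value. SLC37A2 was 5.09 ± 0.396 CPM with JQ-1 and 24.97 ± 0.364 CPM with TP-472 (2.3 (SE 0.062), adjusted p = 3.61e-19). SLC14A1 (2.13), SLC43A3 (1.62), SLC12A7 (1.60) and SLC6A9 (1.57) were also higher with TP-472. SLC35A5 (-1.24), SLC44A5 (-1.24), SLC25A4 (-1.10), SLC38A10 (-1.07) and SLC2A13 (-1.04) were lower with TP-472. SLC1A5 was higher with TP-472 than with JQ-1 (0.23 (SE 0.037), adjusted p = 7.84e-06), whereas SLC1A4 was at 40.8 ± 1.32 CPM with TP-472 and 41.3 ± 1.02 CPM with JQ-1 and was not called (-0.017 (SE 0.049), adjusted p = 0.759, and 0.12 with adjusted p = 0.0462 under total-count scaling). Since dose and exposure are not stated, it is unknown whether the 2 compounds were matched.

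MS023 moved the most members of these 5 compounds in all 3 fits, 6 higher and 8 lower (9.40%, beside 6.06% of genes with a GC value, 3.36% higher and 2.71% lower, and 7.53% of those in the level range). The lactate exporter SLC16A3 stood at 122, 134 and 129 CPM in untreated and 179, 198 and 178 CPM in MS023 libraries. Its log2 change was 0.53 (SE 0.042) as measured (adjusted p = 2.24e-08) and 0.21 with the GC trend removed (adjusted p = 1.48e-04), so the size rests on the correction while the call does not. The fatty acid transport protein SLC27A1 (0.51 and 0.22), the zinc transporter SLC39A13 (0.48 and 0.20), the anion exchanger SLC26A6 (0.38 and 0.18), the ADP/ATP carrier SLC25A6 (0.42 and 0.11) and the creatine transporter SLC6A8 (0.33 and 0.10) were the others that rose in these fits.

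The falls with MS023 included glutamate and neutral amino acid carriers of family 1. SLC1A3, the glutamate and aspartate importer, stood at 6.87, 5.62 and 6.36 CPM in untreated and 4.01, 3.91 and 4.27 CPM in MS023 libraries, near the level threshold, with a log2 change of -0.64 (SE 0.11) (adjusted p = 7.41e-05) and -0.48 with the GC trend removed (adjusted p = 0.00262). SLC1A4 stood at 26.2, 25.4 and 26.4 CPM, below the untreated values given above. Its log2 change was -0.35 as measured, -0.44 with the GC trend removed and -0.45 against the other treated groups, with adjusted p of 1.05e-05, 2.57e-06 and 7.94e-08. The sodium proton exchanger SLC9A2 (-0.56 and -0.40), the inositol transporter SLC2A13 (-0.51 and -0.33), the mitochondrial SLC25A24 (-0.49 and -0.26), SLC30A9 (-0.35 and -0.12) and the taurine transporter SLC6A6 (-0.15 and -0.20, with overlapping groups) were also lower. Among the largest changes as measured, SLC4A2 (0.49), SLC12A9 (0.47) and SLC18A2 (-0.47) were not called in all 3 fits. The call of SLC6A6 was lost without untreated replicate 1 (-0.11, adjusted p = 0.145) or 2 (-0.14, adjusted p = 0.0686) and without MS023 replicate 2 (-0.12, adjusted p = 0.129) or 3 (-0.15, adjusted p = 0.0553).

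With GSK-591, 35 members rose and 32 fell as measured, beside 18.1% and 14.8% of all genes. Under total-count scaling 16 members rose and 48 fell, and 32.1% of all genes called were higher. In all 3 fits 1 rose and 4 fell (3.36%, beside 4.29% of genes with a GC value, 2.39% higher and 1.91% lower). SLC2A13 stood at 18.6, 17.4 and 16.98 CPM in untreated and 12.5, 12.1 and 12.6 CPM in GSK-591 libraries (-0.51 (SE 0.078), adjusted p = 7.40e-05, and -0.36 with the GC trend removed). The chloride importer SLC12A2 (-0.44 and -0.31), the acetyl-CoA transporter SLC33A1 (-0.33 and -0.16) and SLC1A4 (-0.18 and -0.25) also fell. The urea transporter SLC14A1 rose, from 238, 238 and 244 CPM to 256, 258 and 262 CPM (0.11 and 0.15). That call was lost without untreated replicate 1 (adjusted p = 0.0678) or 2 (adjusted p = 0.0595) and without GSK-591 replicate 3 (adjusted p = 0.0736). The 5 largest rises as measured, of SLC12A9 (0.41), SLC4A2 (0.41), SLC9A3R2 (0.37), SLC25A6 (0.34) and SLC19A1 (0.34), were not called in all 3 fits. Nor were the falls of SLC5A3 (-0.46), SLC25A40 (-0.43) and SLC7A2 (-0.45), the last also lost without untreated replicate 1 (adjusted p = 0.0617). Of the genes left out by name, the cystine importer SLC7A11 fell most, from 46.7 ± 4.18 to 29.3 ± 1.88 CPM (-0.68 and -0.44).

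The 2 arginine methyltransferase inhibitors were compared directly, with the untreated libraries in the fit but not in the contrast. Of 149 members, 7 were higher and 10 lower with GSK-591 than with MS023 (11.4%, beside 9.89% of all genes, 5.43% higher and 4.46% lower, and 12.4% of those in the level range), and 14 of these were called with the GC trend removed as well (9.4%, beside 7.88%). Under total-count scaling 4 were higher and 11 lower, and 43.7% of all genes called were higher. In all, 11 members were called without GSK-591 replicate 3 or without MS023 replicate 2. The dicarboxylate carrier SLC25A10 stood at 23.5, 20.7 and 22.02 CPM with GSK-591 and 27.8, 33.8 and 30.8 CPM with MS023 (-0.48 (SE 0.079), adjusted p = 5.25e-04). SLC27A1 (-0.34), SLC39A13 (-0.27), SLC16A3 (-0.27) and SLC6A9 (-0.27) were lower with GSK-591, as were the vitamin transporter SLC5A6 (-0.25), SLC9A8 (-0.24) and SLC11A2 (-0.19). SLC1A3 was at 5.76, 6.64 and 5.36 CPM with GSK-591 and 4.01, 3.91 and 4.27 CPM with MS023 (0.53 (SE 0.11), adjusted p = 0.00473). The vesicular monoamine transporter SLC18A2 (0.43), SLC30A9 (0.21), SLC1A4 (0.17) and SLC25A24 (0.16) were also higher with GSK-591. Leaving out 1 library of either group ended 5 of these calls: SLC1A4 without any 1 of GSK-591 replicates 1 and 3 and the MS023 replicates (adjusted p of 0.0726 to 0.146), SLC25A24 without GSK-591 replicate 2 or MS023 replicate 1 or 2 (0.101 to 0.127), SLC6A9 without replicate 2 of either group (0.0879 and 0.0958), SLC18A2 without GSK-591 replicate 3 or MS023 replicate 1 (0.0526 and 0.0771), and SLC5A6 without GSK-591 replicate 1 (0.0524). SLC2A13 was at 12.4 ± 0.242 and 12.4 ± 0.957 CPM and was not called (0.0065 (SE 0.081), adjusted p = 0.974).

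**Figure D5:**
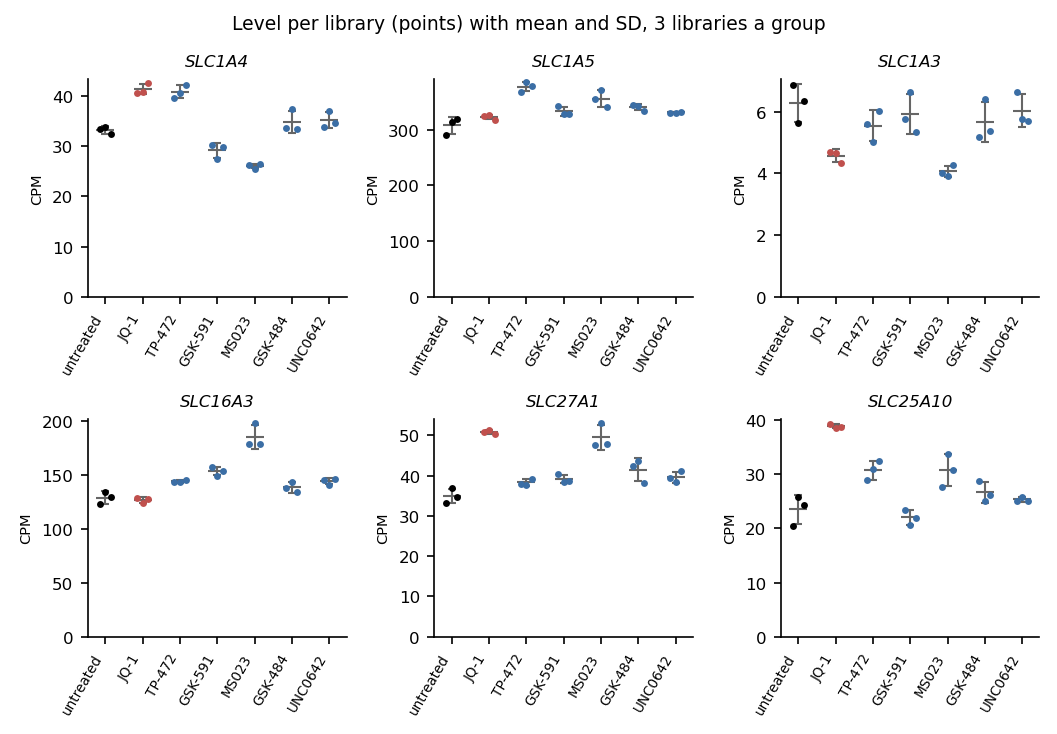
Level in each of the 21 libraries (points, CPM, axis from 0) with the mean and SD of each group of 3, for 6 members that the weaker compounds moved. SLC1A4 is at 39.6 to 42.5 CPM with TP-472 and JQ-1 and at 25.5 to 30.2 CPM with GSK-591 and MS023, and SLC16A3 reaches 178 to 198 CPM with MS023.

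GSK-484 and UNC0642 left few changes in solute carriers that did not depend on the fit. With GSK-484, 21 members rose and 19 fell as measured, beside 11.4% and 7.66% of all genes. Under total-count scaling 12 members rose and 23 fell, and 41.2% of all genes called were higher. In all 3 fits edgeR called 0 members with GSK-484 (0.0212% of genes with a GC value were), with 3 members at an unadjusted p under 0.05 in all of them. Its largest rises as measured were those of SLC12A9 (0.47), SLC9A3R2 (0.31), SLC7A6OS (0.30), the mitochondrial glutamate carrier SLC25A22 (0.28) and SLC26A6 (0.26). Its largest falls were those of SLC10A7 (-0.39), the inositol transporter SLC5A3 (-0.37), SLC25A40 (-0.31), SLC16A7 (-0.29) and SLC25A36 (-0.27), and the calls of the first 4 of these falls were lost without untreated replicate 1 (adjusted p of 0.0555 to 0.265). Without GSK-484 replicate 1 those of SLC10A7, SLC25A40 and SLC16A7 were lost too (0.0759, 0.0658 and 0.138), as was SLC10A7 without untreated replicate 3 (0.0589) and SLC25A40 without GSK-484 replicate 2 (0.0522). With UNC0642, 13 rose and 18 fell as measured, beside 8.71% and 7.54% of all genes. Under total-count scaling 5 members rose and 23 fell, and 29.7% of all genes called were higher. In all 3 fits 1 member was called (0.671%, beside 1.82%). That was the sodium bicarbonate cotransporter SLC4A5, at 21.1, 21.4 and 24.1 CPM in untreated and 19.5, 17.5 and 17.8 CPM in UNC0642 libraries (-0.29 (SE 0.062), adjusted p = 0.00464, and -0.31 with the GC trend removed, adjusted p = 0.00811). The largest rise as measured was that of SLC6A17, a vesicular amino acid transporter (0.31, and 0.23 with adjusted p = 0.101 with the GC trend removed), followed by SLC7A6OS (0.31) and the family 4 members SLC4A11 (0.31), SLC4A3 (0.26) and SLC4A2 (0.25). Beside SLC4A5, the largest falls were those of the vesicular monoamine transporter SLC18A2 (-0.40), the thiamine transporter SLC19A2 (-0.27), SLC25A40 (-0.27) and SLC35A3 (-0.24). The calls of SLC18A2, SLC19A2, SLC25A40, SLC35A3, SLC4A11, SLC4A3 and SLC4A2 each ended without at least 1 single library. Without UNC0642 replicate 3 these were SLC18A2 (adjusted p = 0.0708), SLC19A2 (0.0701), SLC25A40 (0.0815) and SLC4A3 (0.0538), and without its replicate 2 SLC18A2 (0.053), SLC25A40 (0.11), SLC4A11 (0.135) and SLC4A3 (0.0604). Without untreated replicate 3 they were SLC18A2 (0.109), SLC25A40 (0.103), SLC4A11 (0.0855), SLC4A2 (0.0532) and SLC4A3 (0.0745), without untreated replicate 1 SLC25A40 (0.0776), SLC35A3 (0.0536) and SLC4A11 (0.0781), and without UNC0642 replicate 1 SLC25A40 (0.0541).

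The comparisons with untreated cells share the same 3 libraries, and the values of 2 members are set side by side here. SLC1A4 was higher with JQ-1 (0.32) and TP-472 (0.30) and lower with GSK-591 (-0.18) and MS023 (-0.35). It was not called as measured with GSK-484 (0.067) or UNC0642 (0.086). With UNC0642 its log2 change lay between 0.046 and 0.157 over the alternative runs, with a lowest adjusted p of 0.00336. SLC2A13 was higher with JQ-1 (0.78) and lower as measured with GSK-591 (-0.51), MS023 (-0.51), TP-472 (-0.26) and GSK-484 (-0.22). The last 2 of these were not called with the GC trend removed (adjusted p = 0.199 and 0.382), nor without untreated replicate 1 (adjusted p = 0.0681 and 0.18). The call with TP-472 was also lost without TP-472 replicate 2 (0.0619), and that with GSK-484 without untreated replicate 2 (0.0527) or GSK-484 replicate 1 (0.211) or 2 (0.0762). With UNC0642 it was not called as measured (-0.011; 17.5 CPM beside 17.6 CPM in untreated cells). It was called higher with the GC trend removed and the other compounds as the reference (0.33, adjusted p = 1.01e-04). That reference is made of GSK-591, MS023, TP-472 and GSK-484, in which SLC2A13 was lower as measured.

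Carriers and carrier partners outside the symbol pattern were read from a list of 53 genes, of which 51 were in the table and 46 were tested. With JQ-1, 19 rose, 18 fell and 9 were not called (80.4% called, beside 73.3% of all genes). The chaperone of the lactate transporters SLC16A1 and SLC16A3, BSG, rose from 472 ± 43.3 to 727 ± 7.46 CPM (0.62, adjusted p = 2.60e-10), while EMB, a related chaperone, fell from 78.2 ± 3.37 to 38.4 ± 2.20 CPM (-1.03, adjusted p = 5.46e-13). The mitochondrial pyruvate carrier subunit MPC1 rose (1.02), and its partner MPC2 was not called (0.15). The phosphate exporter XPR1 (0.79) and the uncoupling protein gene UCP2 (0.71) rose, and the organic anion transporter SLCO4A1 (-1.22) and the nucleotide sugar transporter SLC35B4 (-1.12) fell. As measured, 7 rose and 4 fell with TP-472 (23.9%, beside 31.8% of all genes), 11 and 6 with GSK-591 (37%, beside 32.9%), 14 and 5 with MS023 (41.3%, beside 42.6%), 5 and 3 for GSK-484 (17.4%, beside 19.1%), and 3 and 1 for UNC0642 (8.7%, beside 16.3%). With the GC trend removed (45 genes), 3 rose and 2 fell with TP-472, 4 and 2 with GSK-591 and 6 and 3 with MS023, beside 14.3%, 15.2% and 19.2% of genes, and edgeR called 0 for GSK-484 and 0 for UNC0642 (3 and 5 at an unadjusted p under 0.05), beside 1.55% and 3.87%.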

How the data were processed

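The deposited table gives expected counts per gene, which need not be whole because RSEM divides reads shared between transcripts. They were made by the authors with RSEM 1.2.15 and Bowtie2 2.1.0 on hg38, per the submitters' processing notes; the notes used here name neither the annotation nor the read filters. A fractional count occurs in 32 members, and in every library in 15, which shows that reads were divided there between genes or transcripts. Counts were rounded to whole numbers. Genes passed edgeR's filterByExpr with at least 10 counts and a total of 15 (edgeR 4.0.16, limma 3.58.1, R 4.3.3) and scaled by TMM, and all 21 libraries entered 1 quasi-likelihood fit with the group as its term, with Benjamini-Hochberg adjustment over all genes tested. Log2 changes use a prior count of 0.125. The common coefficient of variation was 5.09%, which sets how small a change can be called.

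The GC trend was a loess of log2 CPM (prior count 2, span 0.3, 4 iterations) on the GC content of GENCODE 29 transcripts, removed per library as offsets for the 93.7% of tested genes with a value. Promoters came from RefSeq (GRCh38.p14). Replicates were compared with each other: the 21 within-group pairs had chi-square values per degree of freedom of 3.43 to 56.5 and none was identical, so each counts once. Replicate numbers were not taken as pairs, since same-numbered libraries did not deviate together. The fitting code was tested on simulated data.

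The members and lists were chosen with earlier results of these data known. The genes named are the 12 largest called rises and falls without overlap for JQ-1 and the 5 largest for the other comparisons, the most abundant members, the named paralogue groups, the members called in all 3 fits, and the members of each role class that show how it split; a few members that this rule names are not reported here. Alternatives were DESeq2 1.42.0, RLE and total-count scaling, no filter, a replicate block, only the 2 groups in the fit, a 1.2-fold threshold, other references and leaving out each library. Python 3.11.15 and matplotlib 3.10.9 made the motif counts and figures.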

Additional observations from a re-analysis of the deposited data

How the results depend on the processing

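The number of members called with JQ-1 (116) lay within 1.5 times of itself in every alternative run, from 80 with a 1.2-fold threshold to 126 against the other treated groups with the GC trend removed, and 114 to 118 with 1 library left out. The other comparisons with untreated cells depended on the fit. With a 1.2-fold threshold in edgeR (glmTreat) the calls were 0 with TP-472, GSK-591, GSK-484 and UNC0642 (8, 15, 3 and 1 at an unadjusted p under 0.05), 9 with MS023, 70 for TP-472 against JQ-1 and 0 for GSK-591 against MS023 (4 unadjusted). Against the other treated groups they were 14 with TP-472, 12 with GSK-591, 44 with MS023 and 2 with GSK-484. With the GC trend removed they were 16, 18, 33 and 3, with 6 for UNC0642, and with both changes together 22, 16, 29 and 1. With only its 2 groups in the fit, GSK-484 had 0 (47 unadjusted). Leaving out 1 library gave 39 to 73 with TP-472, 41 to 69 with GSK-591, 76 to 90 with MS023, 14 to 49 with GSK-484, 16 to 34 with UNC0642, 106 to 111 for TP-472 against JQ-1 and 11 to 17 for GSK-591 against MS023. The cause was not tested.

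With a replicate block the calls were 116 with JQ-1, 70 with TP-472, 65 with GSK-591, 90 with MS023, 40 with GSK-484, 29 with UNC0642, 112 for TP-472 against JQ-1 and 15 for GSK-591 against MS023. The numbers did not pair the libraries: same-numbered libraries had correlations of deviations from -0.16 to 0.137 (63 pairs, median -0.00243), and 4 of 21 libraries correlated best with their own number. DESeq2 gave 116, 69, 65, 88, 43, 35, 111 and 18 in the same order.

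Of the gene values under alternatives, 2541 either kept direction and side of the threshold or were called in neither run, whatever their sign. Another 273 kept direction but lost the call, 20 kept direction and gained it, and 26 changed sign with a call in either run. Against the other treated groups, without and with the GC trend removed, the log2 changes with JQ-1 were -0.106 and -0.075 for SLC1A5, 0.02 and 0.001 for SLC20A1, 0.038 and 0.065 for SLC30A6, -0.052 and -0.043 for SLC39A13 and 0.244 and 0.308 for SLC7A11. With the GC trend alone removed, SLC30A6 was at 0.022 and SLC7A11 at 0.221. Likewise SLC25A40 was at 0.052 and 0.016 with GSK-484 and at 0.1 and 0.032 with UNC0642, SLC2A13 was at 0.053 and 0.052 with TP-472, at 0.098 and 0.07 with GSK-484 and at 0.366 and 0.33 with UNC0642, and against the other treated groups SLC35A3 was at 0.035 and SLC4A2 at -0.078 with UNC0642. SLC1A4 in TP-472 against JQ-1 was at 0.117 and SLC39A9 with JQ-1 at -0.044 under total-count scaling. The cause of these changes was not tested. With 3 libraries a group, small changes of members near 5 CPM are the least secure.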
